A study of Mus musculus with 20 samples.

Results

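Transcripts of 10 glycolytic enzymes (Hk2, Gpi1, Aldoa, Tpi1, Gapdh, Pgk1, Pgam1, Eno1, Pkm and Ldha) were followed across follicular T cells of mouse bone marrow chimeras. The 10 genes were taken by name from the 13798 genes of the expression matrix, and all 10 had a row. They were compared between the 6 follicular T cell clusters within each mouse, between chimera types inside each cluster, and between cells of large and small T cell clones. Libraries of single-cell RNA and of T cell receptors (TCRs) came from the spleens of 5 WT and 5 mixed 564Igi chimeras on the C57BL/6 strain, each chimera being 1 mouse. Recipients of both groups were irradiated as young adults and rebuilt with congenic marrow. WT chimeras received WT marrow alone and were immunized with NP-OVA, a hapten-carrier protein, in alum at week 6. Mixed 564Igi chimeras received WT marrow mixed with marrow of 564Igi mice, whose knocked-in heavy and light chains make B cells that bind ribonuclear self antigens, and were not immunized. All mice were sacrificed 10 weeks after irradiation, and CXCR5+PD-1+ cells were sorted from the CD4+ T cells that carried CD45.2 and lacked CD45.1. Which donor marrow the sorted T cells of a mixed chimera descended from was not examined here. The WT group held mice 14, 23 and 36 (male) and 11 and 12 (female), and the 564Igi group held mice 17 and 24 (male) and 13, 21 and 34 (female).

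Glycolysis splits glucose into pyruvate in the cytosol. Hexokinase traps glucose as a phosphate ester, glucose phosphate isomerase and aldolase prepare and cleave the sugar, and the enzymes from triose phosphate isomerase to pyruvate kinase recover ATP and NADH. Lactate dehydrogenase reduces pyruvate to lactate and so regenerates the NAD+ that the pathway needs. Activated T cells are known to raise glycolysis, and the transcription factors Hif1a and Myc are known activators of most of these genes. TFH cells help B cells in germinal centers, and TFR cells, which express Foxp3, restrain that help.

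Hypoxia-response elements share the core letters ACGTG or GCGTG, so the 250 bases before each RefSeq transcript start (GRCm38.p6) were searched for both, on either strand. The 10 genes had 16 listed starts, whose windows were not all separate. Those of Aldoa starts 2 and 3 overlapped and held the same site, and those of Eno1 starts 2 and 3 overlapped and held the same 2 sites. Counts over starts therefore include these sites repeatedly, and their excess over all promoters was not tested. An ACGTG or GCGTG lay before 12 of these 16 starts, against 38.6% of 32851 mouse promoters of that length. ACGTG lay before 7 of the 16 starts (16.6% of all promoters) and GCGTG before 6 (28.2%). The E-box CACGTG, which overlaps ACGTG, lay before 1 of them (6.02%). Counted by gene, 8 of the 10 had either core before at least 1 start, and the windows before Tpi1 and Gpi1 held neither core. Windows that held ACGTG are shown for 4 of the genes, with each ACGTG or GCGTG, read on either strand, in capitals. They do not stand for all 16 starts, and another Aldoa window (start 1) held neither core.
Aldoa, chr7:126799255-126799504, minus strand: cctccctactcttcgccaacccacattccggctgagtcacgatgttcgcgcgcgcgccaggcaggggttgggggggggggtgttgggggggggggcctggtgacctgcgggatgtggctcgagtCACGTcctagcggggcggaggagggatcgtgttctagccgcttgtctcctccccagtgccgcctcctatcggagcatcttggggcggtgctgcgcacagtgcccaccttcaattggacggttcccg
Pgk1, chrX:106186850-106187099, plus strand: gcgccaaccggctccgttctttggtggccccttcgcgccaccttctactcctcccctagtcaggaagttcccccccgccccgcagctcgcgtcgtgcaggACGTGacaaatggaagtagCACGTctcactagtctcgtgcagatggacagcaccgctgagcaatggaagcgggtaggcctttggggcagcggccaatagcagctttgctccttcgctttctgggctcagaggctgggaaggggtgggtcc
Pgam1, chr19:41911621-41911870, plus strand: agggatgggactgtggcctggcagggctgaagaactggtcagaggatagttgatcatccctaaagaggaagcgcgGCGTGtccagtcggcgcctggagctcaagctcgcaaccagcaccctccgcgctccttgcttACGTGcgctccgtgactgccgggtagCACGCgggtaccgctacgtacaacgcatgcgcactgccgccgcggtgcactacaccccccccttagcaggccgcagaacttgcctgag
Ldha, chr7:46845554-46845803, plus strand: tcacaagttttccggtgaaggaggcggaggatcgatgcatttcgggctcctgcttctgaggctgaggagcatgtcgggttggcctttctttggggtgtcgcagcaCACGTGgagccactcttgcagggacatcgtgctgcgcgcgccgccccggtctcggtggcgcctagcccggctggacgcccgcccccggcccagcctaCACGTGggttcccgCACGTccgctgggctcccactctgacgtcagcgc
The Ldha window held 5 ACGTG matches, among them 2 copies of the palindrome CACGTG that are read on both strands, while the Aldoa window held 1. A match is a run of letters, and no binding was measured here.

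The genes are spread over the genome, with 3 on chromosome 6 and 3 on chromosome 7. Those on chromosome 6 were Tpi1 at chr6:124810586-124814296, Gapdh at chr6:125161715-125166467 and Hk2 at chr6:82725025-82774454, all on the minus strand of GRCm38. Those on chromosome 7 were Ldha at chr7:46841475-46855627 (plus strand), Gpi1 at chr7:34201330-34230336 and Aldoa (both minus strand). GENCODE vM21 gives Aldoa 2 adjoining gene records, at chr7:126795234-126800751 and chr7:126800790-126809108, and the matrix carries a second row, Aldoa.1, with a value above 0 in 0.0709% of cells. Reads of Eno1 (chr4:150236721-150248879, plus strand) can be confused with those of Eno1b, whose sequence was 99.5% identical over 1736 bases and which was detected in 17.5% of cells, so Eno1 values are uncertain. Gapdh has near-identical copies as well, of which Gm10358 was detected in 0.135% of cells and Gm3839 in 0.681%.

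The matrix held 28192 cells, 1121 to 4030 per mouse, with 3424280 to 15241983 raw UMIs per mouse and median UMIs per cell of 2728 to 4375.5. TCR sequences were matched to 48.0% to 89.3% of the cells of a mouse. A barcode occurred in more than 1 library for 491 barcodes, and 0 of these carried the same CDR3 pair in both libraries. Each cluster expressed its defining markers more often than the other cells in 10 of 10 mice, for example Foxp3 in 56.0% of TFR cells against 7.01% elsewhere and Sostdc1 in 100% of Sostdc1 TFH cells against 14.1%. Of the genes used for sorting, Cd3e was detected in 99.4% of cells, Pdcd1 in 75.6% and Cxcr5 in 40.7%.

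Across clusters, most of the enzymes had their highest mean in Sostdc1 TFH cells, 7 of the 10 had their lowest in central memory TFH cells, and Hk2 was near 0 in all 6 clusters. Levels are given as the mean over the cells of a mouse of log2(corrected UMI count + 1), then as mean ± SD over mice with at least 20 cells. There were 8 such mice for interferon stimulated and for central memory cells and 10 for each other cluster. Central memory means lack 564Igi mice 21 and 34, so means of different clusters are not all over the same mice. The clusters were built from these same cells and genes, so their levels are described without a test. The mean was highest in Sostdc1 TFH cells for 8 of the 10 genes. In WT mice alone that count was 5, with Gpi1, Tpi1, Eno1, Pkm and Hk2 highest in TFR cells, and in 564Igi mice alone it was 9.

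Hk2 encodes the inducible hexokinase that starts the pathway. Its level was at most 0.06 in any mouse and cluster, and it was found in 0.3% to 1.9% of the cells of a cluster, so its values rest on few cells. Gpi1, glucose phosphate isomerase, was almost flat over 5 clusters, from 1.28 ± 0.17 in Sostdc1 TFH to 1.18 ± 0.14 in effector TFH cells, and was 0.98 ± 0.20 in central memory TFH cells. Its Sostdc1 TFH and TFR levels differed by less than the spread between mice (0.01 ± 0.08), while effector cells lay above central memory cells in 7 of 8 mice.

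Aldoa, the aldolase that cleaves the phosphorylated hexose, spanned the widest range. Its lowest, median and highest mouse were 1.68, 2.29 and 2.63 in Sostdc1 TFH cells (mean 2.22 ± 0.32) and 0.78, 0.94 and 1.40 in central memory TFH cells (0.99 ± 0.20). No mouse's central memory level reached the lowest Sostdc1 TFH level. Sostdc1 TFH cells exceeded TFR cells in 9 of 10 mice, by 0.27 ± 0.15. TFR and activated TFH cells, at 1.95 ± 0.21 and 1.90 ± 0.28, were not ordered the same way in every mouse (TFR higher in 6 of 10). Interferon stimulated TFH cells were at 1.74 ± 0.20 and effector TFH cells at 1.58 ± 0.22, and effector cells lay above central memory cells in 8 of 8 mice, by 0.54 ± 0.17. Aldoa was detected in 94.4% of Sostdc1 TFH cells and in 66.0% of central memory TFH cells.

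Tpi1, which interconverts the triose phosphates made by aldolase, stood in 2 tiers. Sostdc1 TFH cells (0.40, 0.97 and 1.37 as lowest, median and highest mouse) and TFR cells (0.57, 0.85 and 1.25) formed the upper tier, and the Sostdc1 TFH mean was the higher in 9 of 10 mice, by 0.08 ± 0.16, less than the spread of that difference. TFR cells exceeded activated TFH cells (0.28, 0.62 and 0.88) in 10 of 10 mice, by 0.25 ± 0.09. Tpi1 transcripts were found in 58.4% of Sostdc1 TFH, 54.4% of TFR, 41.3% of activated TFH, 37.1% of interferon stimulated, 29.7% of central memory and 24.8% of effector TFH cells. The effector and central memory levels, 0.33 ± 0.18 and 0.36 ± 0.06, did not differ beyond their spread.

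The enzymes between the triose phosphates and pyruvate shared the same upper end. Gapdh, which oxidizes glyceraldehyde phosphate and yields NADH, was 1.93 ± 0.39 in Sostdc1 TFH, 1.81 ± 0.34 in TFR and 1.74 ± 0.37 in activated TFH cells, and 1.24 ± 0.30 in central memory TFH cells. WT mouse 14 and 564Igi mouse 24 had the highest 2 Gapdh levels in every cluster in which both were used, so its SDs are wide. Pgk1, the first ATP-yielding step (chrX:106187100-106203699, plus strand), ran from 0.86 ± 0.17 in Sostdc1 TFH to 0.55 ± 0.11 in central memory TFH cells. Pgam1, phosphoglycerate mutase (chr19:41911923-41918660, plus strand), was 0.92 ± 0.16 in Sostdc1 TFH cells against 0.73 ± 0.11 in TFR cells, a difference of 0.19 ± 0.09 seen in 9 of 10 mice. Eno1, enolase, varied least of these, from 0.84 ± 0.20 to 0.72 ± 0.10, and none of its neighbouring clusters was ordered the same way in every mouse.

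Pkm and Ldha, at the end of the pathway, departed from that order. Pkm, pyruvate kinase (chr9:59656368-59679375, plus strand), was alike in TFR cells (1.64, 1.93 and 2.18 as lowest, median and highest mouse) and Sostdc1 TFH cells (1.47, 1.95 and 2.29), with TFR the higher in 4 of 10 mice. Its level in central memory TFH cells, 1.70 ± 0.16, stood near that in activated TFH cells, 1.73 ± 0.25, and the lowest mean was in effector TFH cells, 1.47 ± 0.23. Pkm was thus the clearest exception to the low central memory level, detected in 89.5% of those cells. Ldha, lactate dehydrogenase A, was 1.73 ± 0.26 in Sostdc1 TFH, 1.66 ± 0.17 in activated TFH and 1.60 ± 0.15 in TFR cells, and activated cells exceeded TFR cells in 8 of 10 mice. Ldha was the only gene of the 10 with a higher mean in activated TFH than in TFR cells.

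**Figure D1:**
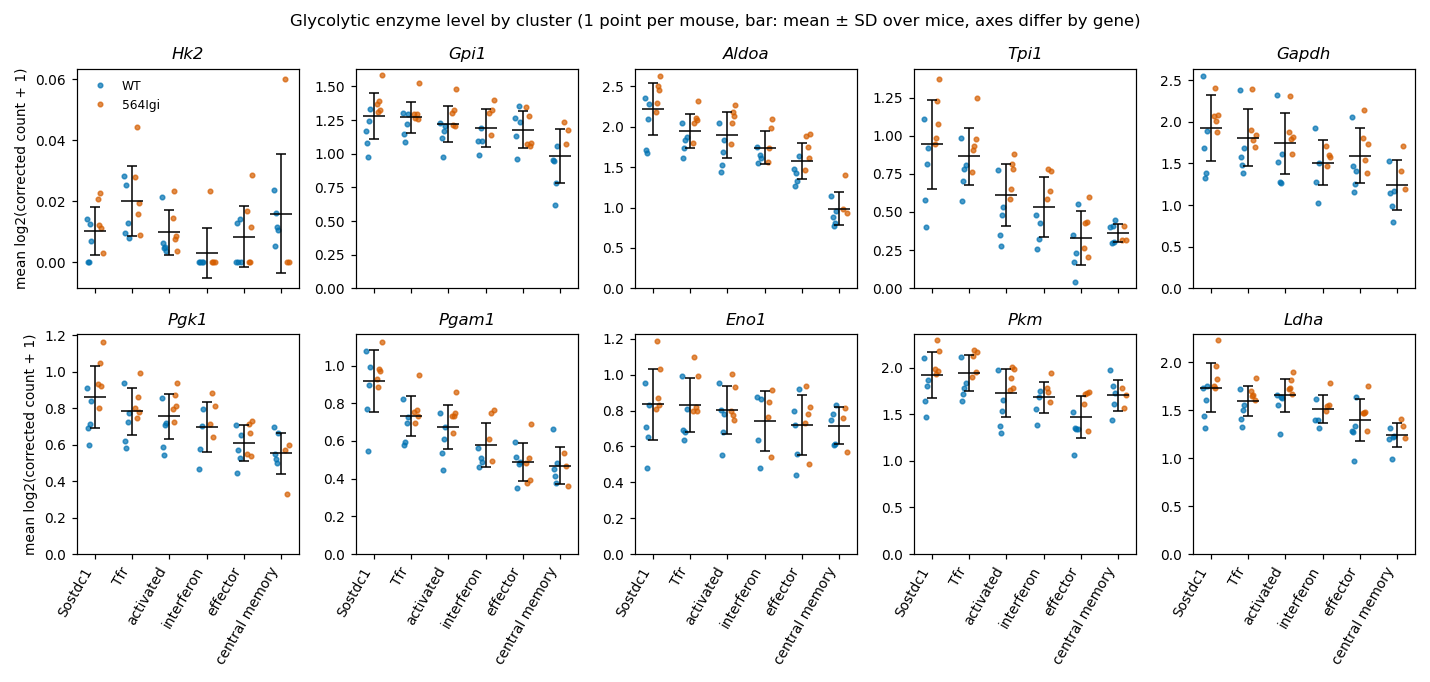
Level of each enzyme in the 6 clusters. Each point is 1 mouse (mean over its cells of log2(corrected UMI count + 1), WT and 564Igi in different colors) and bars mark mean ± SD over mice, with axes that differ by gene. Aldoa spans 2.22 in Sostdc1 TFH to 0.99 in central memory TFH cells, while Eno1 stays between 0.72 and 0.84.

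Counted over mice, 6 of the 10 genes (Aldoa, Tpi1, Gapdh, Pgk1, Pgam1 and Pkm) were higher in Sostdc1 than in activated TFH cells in all 10 mice, as were 5.39% of all 9671 genes compared. Against effector TFH cells, 7 genes, the same 6 and Ldha, were higher in Sostdc1 TFH cells in all 10 mice (6.82% of 9303 genes). TFR cells exceeded activated TFH cells in all 10 mice for Tpi1 and Pkm (12.4% of 9682 genes). Hk2 did so too (activated minus TFR -0.010 ± 0.006), but it failed the filter on low values in activated cells. It is thus not among the genes compared with that cluster. Between TFR and Sostdc1 TFH cells 0 of the 10 genes differed in 1 direction in all mice, where 6.5% of 9645 genes were higher in TFR and 6.1% in Sostdc1 TFH cells. As a share of each cell's corrected counts, the 10 genes together took 58.8 ± 13.2 per 10000 in Sostdc1 TFH, 54.1 ± 9.64 in TFR, 49.9 ± 10.7 in activated TFH, 42.4 ± 6.89 in interferon stimulated, 38.1 ± 7.84 in effector and 31.5 ± 4.65 in central memory TFH cells. The interferon stimulated and central memory shares are over 8 mice and the others over 10. Median raw UMIs per cell were 3741, 3461, 3547, 3893, 3471 and 4027 in the same clusters.

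Patterns were compared over 56 combinations of mouse and cluster, with levels centred within each mouse. The enzymes' pattern was the mean of their centred levels, each divided by its SD. The 10 other genes most like it included Hif1a (Pearson r 0.907), the hypoxia-inducible transcription factor, and Fam162a (0.912), a hypoxia-induced mitochondrial protein. Igf1r, the receptor of insulin-like growth factor, had r 0.911 and Atp5g1, a subunit of mitochondrial ATP synthase, 0.890. Odc1, ornithine decarboxylase, had 0.880, and Coq8a, Ptger2, Ctsz and Eea1 lay between 0.867 and 0.888. Among the enzymes themselves r ran from 0.943 for Tpi1 and 0.918 for Pgam1 down to 0.654 for Gpi1 and 0.320 for Hk2, each enzyme being part of the mean. These r values are descriptive, since the clusters were built from these same cells and genes and combinations of 1 mouse share its library.

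In activated TFH, TFR and Sostdc1 TFH cells the enzymes had higher means in 564Igi than in WT chimeras, and in none of the 6 clusters did a single enzyme pass the test across all genes. This comparison asked whether follicular T cells of an autoimmune environment carry more glycolytic transcripts than those answering a foreign antigen. In activated TFH cells 0 of 9 tested enzymes were called by limma (adjusted p below 0.01 and a log2 difference above 0.2) and 1 of 9859 genes was (0.0101%). At an unadjusted p below 0.05, 7 of the 9 were higher in 564Igi mice, against 2.09% of genes, and the means of all 9 were higher, against 44.1% of genes. Their median difference was 0.22 (0.14 without WT mouse 12), where that of all genes was -0.00117. Hk2 did not pass the filter on low values in these cells. Aldoa, Pkm and Tpi1 were picked by the study from these same mice, so their direction is not independent evidence. WT and 564Igi cells were also normalized in separate runs, and that step and the chimera type cannot be told apart.

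In the mouse order WT 14, 11, 12, 23 and 36, Aldoa averaged 2.05, 1.44, 1.52, 1.69 and 1.84 in activated TFH cells, and in the order 564Igi 17, 24, 13, 21 and 34 it averaged 1.79, 2.04, 2.18, 2.14 and 2.27. The groups overlapped, since WT mouse 14 stood with the 564Igi mice and WT mouse 36 above 564Igi mouse 17. The difference was 0.37 ± 0.12 (SE; limma adjusted p = 0.956, exact permutation p = 0.0397, two-sided, the smallest possible being 0.00794). Folds on this scale understate the change of low genes.

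Tpi1 in the same mouse order was 0.78, 0.35, 0.28, 0.48 and 0.53 in WT and 0.58, 0.65, 0.81, 0.78 and 0.88 in 564Igi mice. Here only WT mouse 14 reached into the 564Igi range. The difference was 0.26 ± 0.07 (adjusted p = 0.786), and without mouse 14 it was 0.33 with an adjusted p of 0.00946, which passes both limits, so that this call rests on 1 mouse. Pkm was 1.97, 1.37, 1.30, 1.54 and 1.65 in WT and 1.76, 1.89, 2.0, 1.78 and 1.99 in 564Igi mice, a difference of 0.32 ± 0.12 (adjusted p = 0.972, exact permutation p = 0.0397).

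Ldha was the only enzyme whose groups did not overlap in activated TFH cells, with 1.66, 1.56, 1.25, 1.63 and 1.63 in WT and 1.72, 1.73, 1.81, 1.66 and 1.90 in 564Igi mice. All genes without overlap and higher in 564Igi mice made up 0.264%. The highest WT and the lowest 564Igi mouse both round to 1.66, and the difference was 0.22 ± 0.10 (adjusted p = 1, exact permutation p = 0.00794). Gapdh was 2.32, 1.52, 1.27, 1.27 and 1.61 in WT and 1.88, 2.31, 1.80, 1.61 and 1.81 in 564Igi mice. Its 2 highest values came from 1 mouse of each group, and the difference of 0.28 ± 0.16 (SE) had an exact permutation p of 0.222. The other differences were 0.15 ± 0.06 for Pgk1, 0.14 ± 0.05 for Pgam1, 0.17 ± 0.07 for Gpi1 and 0.10 ± 0.07 for Eno1.

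**Figure D2:**
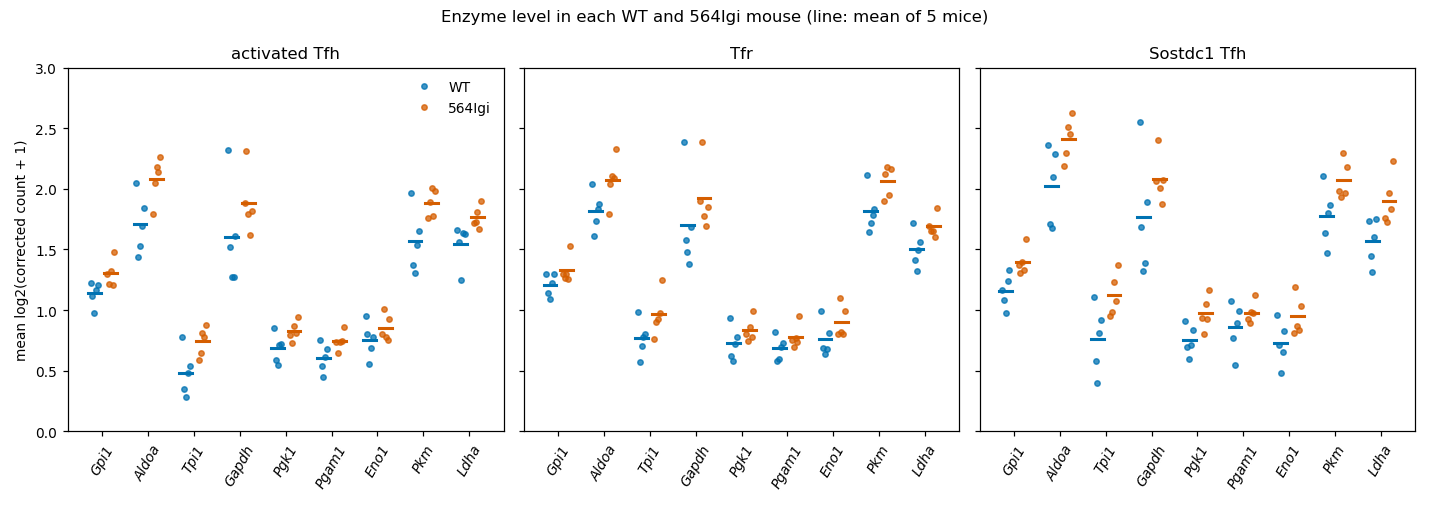
Levels of 9 enzymes (all but Hk2) in WT and 564Igi chimeras within activated TFH, TFR and Sostdc1 TFH cells. Each point is 1 mouse on the log2(corrected UMI count + 1) scale and bars mark group means. In activated TFH cells WT mouse 14 lies among the 564Igi mice for Aldoa (2.05) and Tpi1 (0.78), and for Tpi1 the other WT mice lie below all 564Igi mice.

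TFR cells gave the same direction. The means of all 10 enzymes were higher in 564Igi mice (41.9% of genes), 5 of 10 had an unadjusted p below 0.05 (1.59% of genes), and 0 were called, against 2 of 9994 genes (0.02%). Aldoa was 2.04, 1.61, 1.74, 1.83 and 1.88 in WT and 1.79, 2.04, 2.11, 2.09 and 2.32 in 564Igi mice, with mice 14 and 17 crossing between the groups, and differed by 0.25 ± 0.10. Pkm differed by 0.25 ± 0.10, Tpi1 by 0.20 ± 0.07, Ldha by 0.19 ± 0.08 and Eno1 by 0.14 ± 0.07. Gapdh, at 0.22 ± 0.15, and Pgk1, Pgam1 and Gpi1, at 0.10 to 0.12, had unadjusted p-values above 0.05.

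In Sostdc1 TFH cells the median difference of the enzymes was 0.27, where that of all genes was -0.0039. The means of all 10 enzymes were again higher in 564Igi mice (38.5% of genes) and 7 had an unadjusted p below 0.05 (1.55% of genes), while 0 were called, against 2 of 9885 genes (0.0202%). Tpi1 was 1.11, 0.58, 0.40, 0.81 and 0.92 in WT and 0.95, 0.99, 1.23, 1.08 and 1.37 in 564Igi mice, and only WT mouse 14 overlapped the 564Igi range. The difference was 0.36 ± 0.10 (limma adjusted p = 0.614). Ldha was 1.73, 1.44, 1.31, 1.60 and 1.75 in WT and 1.76, 1.73, 1.96, 1.83 and 2.23 in 564Igi mice, with 564Igi mouse 24 below WT mouse 36, and differed by 0.33 ± 0.11 (adjusted p = 0.881, exact permutation p = 0.0238). Aldoa differed by 0.39 ± 0.13, Pkm by 0.30 ± 0.12, Gpi1 by 0.24 ± 0.08, Pgk1 by 0.22 ± 0.07 and Eno1 by 0.22 ± 0.08. For Pgam1 (0.12 ± 0.08) and Gapdh (0.32 ± 0.17) the unadjusted limma p was above 0.05.

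The 3 small clusters were less even. In interferon stimulated TFH cells mice 12 and 24 had under 20 cells and were left out. Tpi1 there was 0.48, 0.26, 0.32 and 0.43 in WT mice 14, 11, 23 and 36 and 0.58, 0.78, 0.64 and 0.77 in 564Igi mice 17, 13, 21 and 34, without overlap, as were 1.17% of genes in that direction. The difference of 0.32 ± 0.07 had an adjusted p of 0.112 and an exact permutation p of 0.0286, the smallest that 4 against 4 mice allow. In effector TFH cells Aldoa differed by 0.30 ± 0.12 and Pkm by 0.30 ± 0.12, the 2 of 10 enzymes with an unadjusted p below 0.05 (1.67% of genes), and Gpi1 by -0.02 ± 0.10. Neither cluster had an enzyme called, where 1 gene was called in each (0.0106% and 0.0104%). In central memory TFH cells 0 of 10351 genes were called, with 784 at an unadjusted p below 0.05. Mice 21 and 34 had under 20 cells there, and Gpi1 was 0.95, 0.95, 0.62, 0.79 and 1.06 in WT mice and 1.24, 1.07 and 1.18 in 564Igi mice 17, 24 and 13, without overlap (3.19% of genes). Its difference was 0.29 ± 0.10 (adjusted p = 0.554), Gapdh differed by 0.31 ± 0.14, and the means of 5 of the 10 enzymes were higher in 564Igi mice (54.7% of genes).

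**Figure D3:**
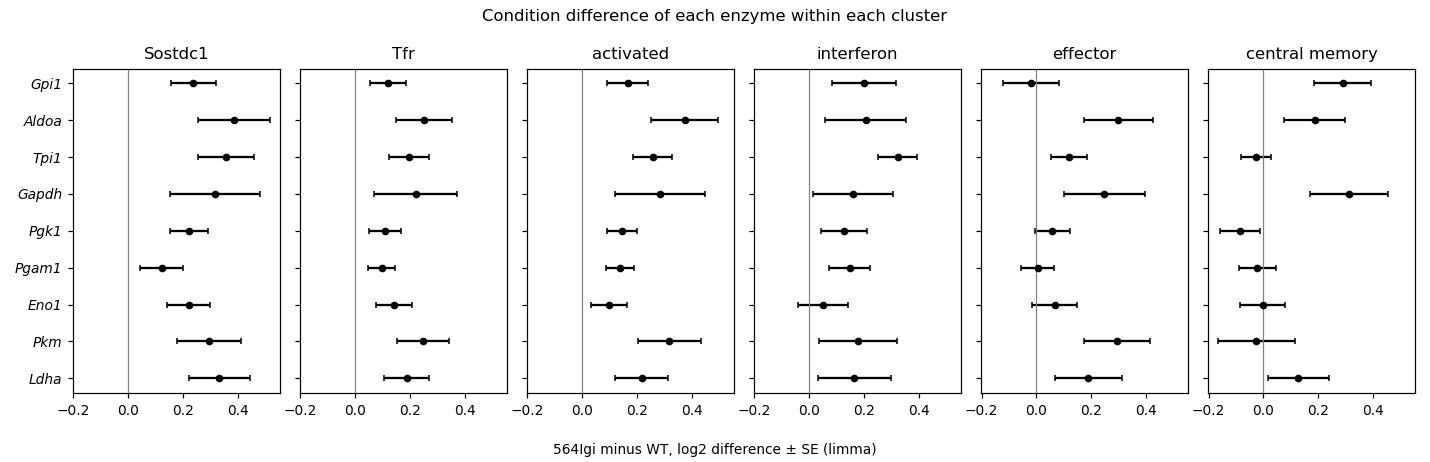
Difference between 564Igi and WT chimeras (log2, mean ± SE from limma) for 9 enzymes (all but Hk2) in each cluster, with 0 marked. All 9 lie above 0 in TFR, activated TFH and Sostdc1 TFH cells, whereas in central memory TFH cells 4 of 9 do.

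Marker genes of other cells overlapped between the chimera types in activated TFH cells. The summed share of 6 B cell genes was 0.20 to 0.324 per 10000 corrected counts in WT and 0.197 to 0.322 in 564Igi mice (exact permutation p = 1). For 5 myeloid genes it was 1.34 to 1.71 and 1.44 to 2.80 (exact permutation p = 0.587), with Itgam not in the matrix. Of all sorted cells, Cst3 was detected in 45.3%, and Lyz2, Csf1r, Fcer1g and Tyrobp in 0.0525% to 0.231%. The myeloid sum thus rests mostly on Cst3 and says little about myeloid cells. The heat shock genes took 6.46 to 10.6 in WT and 6.40 to 11.9 in 564Igi mice. With the heat shock score as a covariate 0 enzymes were called in activated TFH cells. This count was 0 without the covariate too, so it says nothing about the part of the score. In activated TFH cells the median enzyme difference was at least 0.19 in every alternative setting other than leaving out each mouse in turn. Leaving out 1 mouse took it as low as 0.14. The part of the B cell and myeloid genes in the chimera differences was not tested.

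Whether the chimera difference itself varied between clusters was tested on each mouse's difference between 2 clusters. For TFR against activated TFH cells 0 of 9 enzymes and 0 of 9682 genes were called by limma, with 704 genes at an unadjusted p below 0.05. Aldoa was higher in TFR than in activated cells by 0.11 ± 0.09 (SD) in WT mice and by -0.01 ± 0.05 in 564Igi mice, differing by -0.12 ± 0.04 (SE; exact permutation p = 0.0556). For Sostdc1 against activated TFH cells 1 of 9671 genes (0.0103%) and 0 enzymes were called. Eno1 had the clearest value there, -0.03 ± 0.06 in WT and 0.09 ± 0.06 in 564Igi mice, differing by 0.12 ± 0.03 (limma adjusted p = 0.533, exact permutation p = 0.0159). For effector against activated TFH cells 0 enzymes and 0 of 9355 genes were called, with 556 genes at an unadjusted p below 0.05. Pgam1 was lower in effector than in activated cells in all 10 mice, with effector minus activated at -0.12 ± 0.06 in WT and -0.25 ± 0.07 in 564Igi mice, differing by -0.13 ± 0.04 (adjusted p = 0.725, exact permutation p = 0.0159).

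The neighbouring pathways were read from gene lists chosen with earlier results of these data known. Between activated TFH cells of both chimera types 0 genes of any list were called. At an unadjusted p below 0.05, 2.09% of all genes were higher in 564Igi mice. Among other glycolytic enzymes and isozymes, 2 of 13 tested genes were higher at that limit, including Pfkl, a phosphofructokinase subunit (0.06 ± 0.03). Of the glucose and lactate transport genes 1 of 7 did so, and of the pentose phosphate (7 tested), pyruvate entry (11) and Myc and mTORC1 related genes (14) 0 did so. The hypoxia list had 4 of 19, among them Mif, a cytokine and known hypoxia target, at 0.30 ± 0.10 (limma adjusted p = 0.956) and Hif1a at 0.22 ± 0.10. The medians of these lists lay between -0.000741 and 0.00929, and many of these genes were detected in few cells, where this scale compresses differences. Slc2a1, the main glucose transporter of T cells, was detected in 11.7% of cells and differed by 0.00436 ± 0.0197. Across clusters, Hif1a spanned 1.74 in Sostdc1 TFH to 0.504 in central memory TFH cells, Hk1, the constitutive hexokinase, 0.356 to 0.154 in the same clusters, and Pfkl 0.391 to 0.153. In contrast Tkt, transketolase of the pentose phosphate pathway, was highest in central memory (0.651) and lowest in Sostdc1 TFH cells (0.427), as was Txnip, a restrainer of glucose uptake (0.633 and 0.494).

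Cells of expanded clones in the activated TFH cluster carried more transcript of 4 of 9 tested enzymes than cells of singleton clones. A clone was defined as cells of 1 mouse with the same α and β CDR3 amino acid sequences, expanded at 5 cells or more over the whole TCR table. The activated cluster held 4877 cells of 801 expanded clones and 2416 singleton cells, and each mouse was compared with itself. In all, 626 of 9690 genes were called by limma (6.46%), of which 151 were higher (1.56%) and 475 lower (4.9%) in expanded clones. Aldoa, Tpi1, Pkm and Pgam1 were called higher and 0 enzymes lower.

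Aldoa was 1.55, 1.96 and 2.36 (lowest, median and highest mouse) in expanded and 1.32, 1.87 and 2.19 in singleton cells. It was higher in expanded cells in 9 of 10 mice, with differences from -0.01 in WT mouse 36 to 0.37 in WT mouse 23, and the mean difference was 0.17 ± 0.03 (SE; limma adjusted p = 0.0182, exact sign-flip permutation p = 0.00391). Tpi1 was 0.317, 0.704 and 0.935 in expanded and 0.226, 0.565 and 0.852 in singleton cells, higher in 10 of 10 mice, by 0.11 ± 0.02 (adjusted p = 0.0151). It was detected in 43.9% of expanded and 38.0% of singleton cells. Pkm was also higher in 10 of 10 mice, by 0.04 to 0.27 and on average by 0.11 ± 0.02 (adjusted p = 0.0182, exact sign-flip permutation p = 0.00195, the smallest possible). Pgam1 was higher in 9 of 10 mice, by 0.08 ± 0.02 (adjusted p = 0.0343), and its adjusted p rose to between 0.0537 and 0.0782 without any 1 of mice 11, 12, 23, 36, 17, 24 and 13, whereas the other 3 calls were kept without each mouse in turn.

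Of the 5 enzymes that were not called, Gapdh was higher in 8 of 10 mice, by 0.13 ± 0.04 (adjusted p = 0.0546), and without WT mouse 36 its adjusted p was 0.0448. Pgk1 differed by 0.03 ± 0.02, Ldha by 0.01 ± 0.02, Gpi1 by -0.03 ± 0.03 and Eno1 by -0.05 ± 0.03. Eno1 was lower in expanded cells in 8 of 10 mice, and only mice 17 and 34 had it higher.

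**Figure D4:**
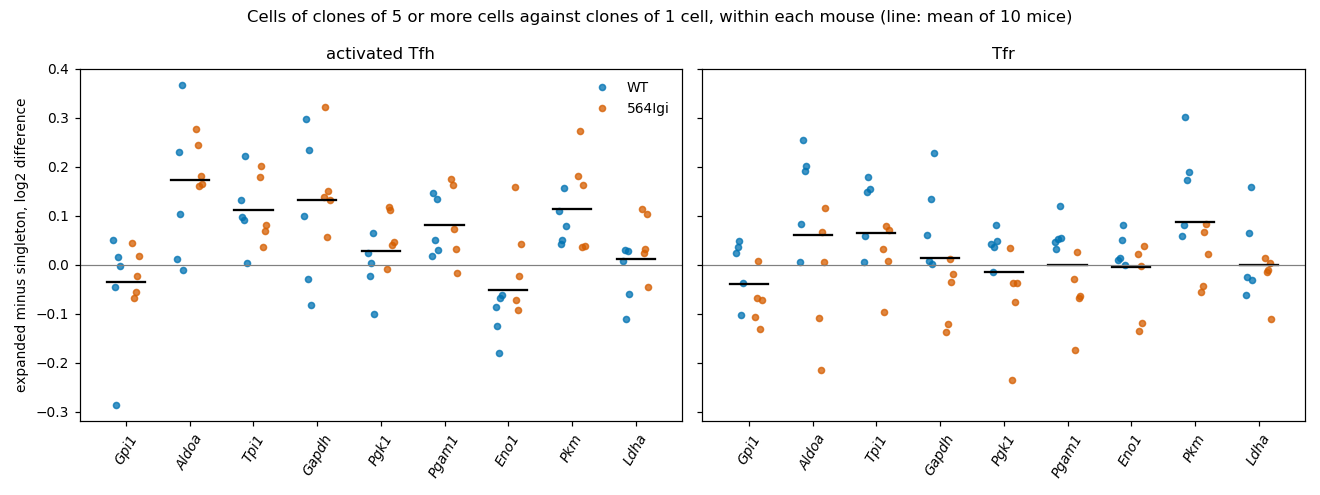
Expanded minus singleton level (log2 scale) of 9 enzymes (all but Hk2) in activated TFH and TFR cells, 1 point per mouse colored by chimera type, with the mean over mice. In activated TFH cells all 10 mice lie above 0 for Tpi1 and Pkm and 9 of 10 for Aldoa and Pgam1, while 8 of 10 lie below 0 for Eno1.

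Depth and the heat shock score differed between the arms. Expanded activated cells had fewer raw UMIs than singletons, with medians averaging 3513 and 3921 over mice (difference -407.5 ± 322 (SD), exact sign-flip permutation p = 0.00781), and a higher heat shock score in 9 of 10 mice (0.0295, exact p = 0.00586). Among cells of 2500 to 5000 UMIs the differences were 0.16 for Aldoa, 0.08 for Pkm, 0.09 for Tpi1 and 0.08 for Pgam1, and 1 of the 4, Pgam1, stayed below an adjusted p of 0.05 (0.0326), with 106 genes called. With each clone counted once, Tpi1 alone was called (0.10, adjusted p = 0.0345), and the differences of the other 3 were 0.14 for Aldoa (adjusted p = 0.0593), 0.10 for Pkm (0.0802) and 0.07 for Pgam1 (0.128). The part of the heat shock score in the result was not tested.

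Of the neighbouring lists in the same comparison, hypoxia genes had 2 of 19 called higher. These were Hif1a (0.25 ± 0.04, limma adjusted p = 0.0124, 10 of 10 mice) and Egln3, the oxygen-sensing prolyl hydroxylase that marks Hif1a for decay (0.08 ± 0.01, adjusted p = 0.00861, 10 of 10 mice). Egln3 and Myc were singled out after their values were seen. Odc1, a polyamine synthesis enzyme, was higher by 0.12 ± 0.02 (adjusted p = 0.0191) and Myc itself, detected in 5.09% of cells, was lower in all 10 mice, by 0.03 ± 0.01 (adjusted p = 0.0313). Tkt fell by 0.07 ± 0.02 (adjusted p = 0.0364). Odc1, Myc and Tkt are single genes of the Myc and mTORC1 related and pentose phosphate lists, whose called counts are not given here. None of these list genes was read off in the alternative settings. There, 106 genes in all were called at 2500 to 5000 UMIs and 223 with each clone counted once, against 626 here. In 4 further lists 0 genes were called by limma. At an unadjusted p below 0.05, where 4.31% of all genes were higher and 18.8% lower, these held 2 of 13 other glycolytic enzymes (1 higher and 1 lower), 1 of 7 transport genes (lower), 2 of 11 pyruvate entry genes (lower) and 0 of 4 flux switches.

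In TFR cells (3953 expanded and 2972 singleton cells) 0 of 10 enzymes were called between expanded and singleton clones, where 150 of 9808 genes were (1.53%). Pkm was 1.70, 1.96 and 2.22 (lowest, median and highest mouse) in expanded and 1.54, 1.93 and 2.20 in singleton cells, higher in 8 of 10 mice by 0.09 ± 0.03 (limma adjusted p = 0.157). Tpi1 was higher in 9 of 10 mice by 0.06 ± 0.02 (adjusted p = 0.175), and these were the 2 enzymes with an unadjusted p below 0.05 (3.03% of genes were so and higher). The other 8 differed by -0.04 to 0.06. In Sostdc1 TFH cells, where 7 mice had enough cells, 0 of 9707 genes were called and 545 had an unadjusted p below 0.05, 1 of them Gapdh (0.08 ± 0.03).

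The TFR values were then split by chimera type. At an unadjusted p below 0.05, expanded minus singleton was lower in 564Igi than in WT mice for 6 of 10 enzymes (4.61% of genes). By limma 0 enzymes were called, against 1 of 9808 genes (0.0102%). Pgam1 was 0.05, 0.03, 0.05, 0.12 and 0.06 in WT mice 14, 11, 12, 23 and 36 and -0.03, -0.17, 0.03, -0.07 and -0.06 in 564Igi mice 17, 24, 13, 21 and 34. The groups did not overlap, as was so for 0.734% of genes in that direction, and differed by -0.12 ± 0.03 (limma adjusted p = 0.439, exact permutation p = 0.00794). Pkm was higher in expanded cells by 0.16 ± 0.10 (SD) in WT and by 0.01 ± 0.06 in 564Igi mice, and Gapdh by 0.09 ± 0.10 and -0.06 ± 0.07. For activated TFH cells the means of all 9 enzymes went the other way, higher in 564Igi mice (36.8% of genes), with 1, Eno1, at an unadjusted p below 0.05 (1.37% of genes) and 0 called, against 1 of 9690 genes (0.0103%). The opposite directions in the 2 clusters were not tested against each other.

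Cells of the same clone resembled each other in some enzymes. The intraclass correlation, the share of a gene's variance that lies between clones, was taken within each mouse over clones with at least 2 cells in the cluster (152 to 935 cells and 40 to 168 clones per mouse). In activated TFH cells 261 of 9689 genes had a value above 0 by limma (2.69%), with a median over all genes of 0.00928, and Aldoa and Tpi1 were among them. Aldoa ranged from 0.01 in WT mouse 12 to 0.14 in 564Igi mouse 17 and averaged 0.08 ± 0.02 (SE; limma adjusted p = 0.0173), above 0 in 10 of 10 mice. Tpi1 averaged 0.07 ± 0.02 (adjusted p = 0.0462, 9 of 10 mice) and Pkm 0.06 ± 0.01 (adjusted p = 0.0530, 10 of 10 mice). Pgam1, Ldha, Gapdh, Eno1 and Pgk1 lay between 0.02 and 0.04, and Gpi1 was lowest at -0.01.

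In TFR cells 86 of 9650 genes were called (0.891%), with a median over all genes of 0.00676, and again Tpi1 and Aldoa were among them. Tpi1 ranged from 0.03 in WT mouse 11 to 0.29 in 564Igi mouse 17 and averaged 0.14 ± 0.03 (limma adjusted p = 0.0324, 10 of 10 mice). Aldoa averaged 0.11 ± 0.02 (adjusted p = 0.0373) and was above 0 in all mice but 564Igi mouse 34. Gapdh (0.09 ± 0.02), Pgam1 (0.07 ± 0.02) and Pkm (0.06 ± 0.02) missed the threshold. Leaving out 1 mouse left between 0 and 2 enzymes called in either cluster. As an example of the spread, the means of 7 activated clones of at least 10 cells in 564Igi mouse 34 ran from 1.80 to 3.18 for Aldoa, with a median of 2.30, and from 0.558 to 1.53 for Tpi1.

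**Figure D5:**
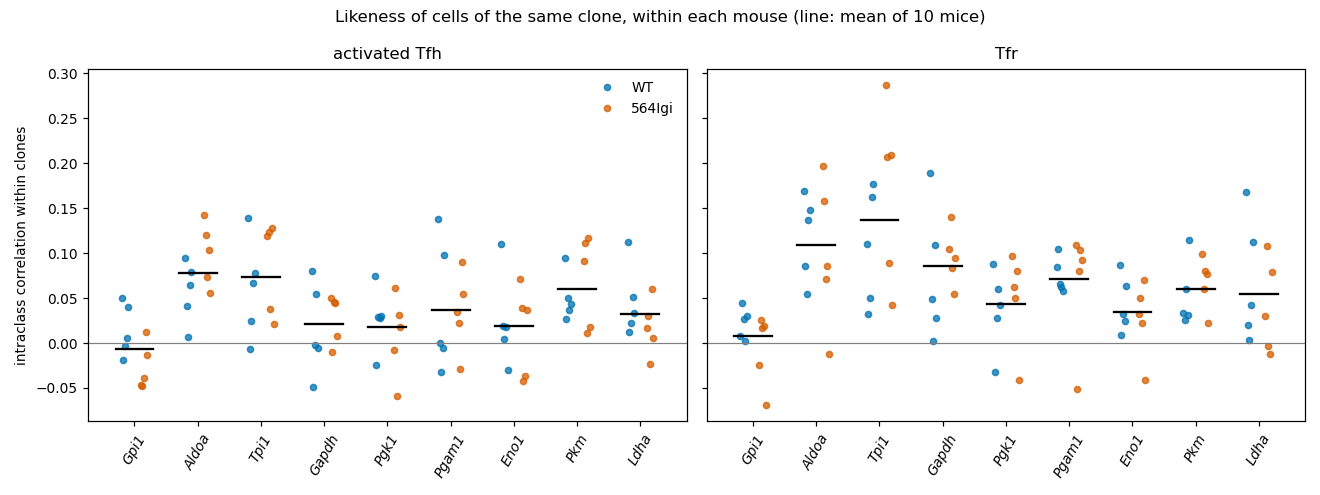
Intraclass correlation of 9 enzymes (all but Hk2) among cells of the same clone, 1 point per mouse, in activated TFH and TFR cells, with the mean over mice. Tpi1 averages 0.07 in activated TFH and 0.14 in TFR cells, and Gpi1 stays near 0 in both.

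Over single cells the relation to clone size was weak. Spearman's rho between level and clone size in activated TFH cells, computed within each mouse and averaged over 10 mice, was 0.0867 for Aldoa, 0.0655 for Gapdh, 0.0630 for Tpi1, 0.0569 for Pkm and 0.0443 for Pgam1. It was -0.0329 for Eno1 and between -0.02 and 0.01 for the others. Raw UMI totals had a rho of -0.138 with clone size and of 0.0527 to 0.239 with the enzymes, and cells of 1 mouse share a library. Between enzymes, Aldoa and Tpi1 had a rho of 0.340 in activated TFH, 0.405 in TFR and 0.419 in Sostdc1 TFH cells, above 0 in 10 of 10 mice in each, and these values share depth as well.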

How the data were processed

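Single-cell RNA and TCR libraries of 10 mice, 5 per chimera type, were used. Per the labels and the study's methods, the authors ran Cell Ranger 4.0.0 against GRCm38 (mm10), filtered cells in Seurat 3.1.4, and normalized WT and 564Igi cells separately with sctransform, regressing mitochondrial and ribosomal shares, UMI totals and a heat shock score. Their cell filter also dropped cells with high S or G2/M phase scores, so levels here hold for cells with low scores. The deposited matrix holds the natural log of corrected UMI counts plus 1. The authors also deposited raw UMI counts per cell, percent of mitochondrial and ribosomal UMIs, a heat shock score per cell, their cluster names and CDR3 sequences. No raw count per gene was used here, so no count model was run, and no doublet caller was run.

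Values were turned into log2(corrected count + 1) and a mean was taken per mouse and cluster where 20 or more cells were present. Testing was limited to genes detected in 1% of cells or more, in a number of mice no lower than the smaller group, and used limma 3.58.1 (R 4.3.3, trended variance) and Benjamini-Hochberg adjustment over all genes. Between chimera types a call needed an adjusted p below 0.01 and a log2 difference above 0.2, and elsewhere an adjusted p below 0.05. Expanded and singleton cells were compared within each mouse. Exact permutation tests were two-sided (scipy 1.17.1, numpy 2.4.6, pandas 2.3.3, Python 3.11.15). Copies were aligned with BLAST 2.17.0. The fits were tested on simulated data. The enzymes and gene lists were chosen with earlier results of these data known. Genes were named as members, or from the lists by their range over clusters or their unadjusted p. Alternatives changed the scale, filters, variance trend, covariates, clone definition and depth, and left out each mouse.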

Additional observations from a re-analysis of the deposited data

Results flagged for a closer look

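In 8 of 153 groups of mice tested, 1 mouse stood far from the others, where chance gives about 1 in 20. In activated TFH cells, Ldha of WT mouse 12 was 1.25, with the nearest WT mouse at 1.56. In TFR cells, 564Igi mouse 34 had Pgam1 at 0.95 (nearest mouse 0.767) and Gpi1 at 1.53 (nearest 1.30). For expanded minus singleton cells, Gpi1 of mouse 12 in activated TFH cells was -0.29 (nearest -0.07). In TFR cells mouse 24 had Pgk1 at -0.24 (nearest -0.08) and Hk2 at -0.039 (nearest -0.01). For the likeness of cells of 1 clone in TFR cells, mouse 24 had Pgam1 at -0.052 (nearest 0.06) and Hk2 at -0.27 (nearest -0.06).

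Of 55 differences of differences, 8 had an exact permutation p below 0.05, and 0 of the 8 passed limma's adjustment over all genes. Between Sostdc1 and activated TFH cells, the chimera difference differed for Pgk1 by 0.076 (exact p = 0.0476) and for Eno1 by 0.12 (exact p = 0.0159). Between effector and activated TFH cells it differed for Pgam1 by -0.13 (exact p = 0.0159) and for Gpi1 by -0.19 (exact p = 0.0476). In TFR cells, expanded minus singleton was lower in 564Igi than in WT mice for Pkm by -0.15 (exact p = 0.0397), Gapdh by -0.15 (exact p = 0.0238), Pgk1 by -0.11 (exact p = 0.0159) and Pgam1 by -0.12 (exact p = 0.00794).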

How the results depend on the processing

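Of the summary values recomputed under other settings, 449 stayed within their limits and 135 moved, and of the single-gene values 1512 stayed, 46 lost and 10 gained a call, 8 moved and 2 reversed. The cause was not tested unless the setting itself removed cells or genes. For expanded against singleton activated TFH cells (4 enzymes and 626 genes called), counting each clone once gave 1 and 223, cells of 2500 to 5000 UMIs gave 1 and 106, and leaving out the mouse as replicate block, which ignores the pairing of both arms within a mouse, gave 0 and 12. Ldha reversed there to -0.0078 with clones over 10 cells and to -0.000338 in cells with 1 alpha and 1 beta V gene, an alternative chosen after seeing the data in place of a planned one on CDR3 numbers that could not be run. In TFR cells the 150 genes called became 98 per 10000 counts, 75 without the filter, 70 from clones of 2 cells, 82 from clones over 10 cells, 63 with each clone once, 81 with clone size counted over cells with RNA, 0 at 2500 to 5000 UMIs, 7 without the replicate block and 22 with 1 alpha and 1 beta V gene. Clone likeness called 1 enzyme in activated cells without the filter, and 5 enzymes and 178 genes in TFR cells without the variance trend. The count of enzymes highest in Sostdc1 TFH cells was 5 in WT mice alone.

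Genes called between chimera types were few under all settings run. Without the variance trend they were 0 in all cells, activated TFH, TFR, Sostdc1 TFH, effector and interferon stimulated cells. Without the filter they were 0 in activated TFH and TFR cells and 1 in Sostdc1 TFH cells, which also had 1 per 10000 counts. At an adjusted p below 0.05 with no limit on size they were 7 in all cells, 4 in activated, 9 in TFR, 4 in Sostdc1, 6 in effector and 3 in central memory cells. With a pseudocount of 0.1 they were 6, 2, 10, 3, 3 and 6 in all, activated, TFR, effector, interferon stimulated and central memory cells, and 1 between TFR and activated cells. That setting called 1 enzyme in interferon stimulated cells, Tpi1 (1.08, limma adjusted p = 0.00664). Effector cells gave 6 with the heat shock score, 6 without mice 34 and 36 and 3 with at least 50 cells, interferon stimulated cells 2 without mice 34 and 36, and central memory cells 2 with sex as covariate. Per 10000 counts the comparison of expansion between chimera types called 0 genes in activated and 0 in TFR cells.

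Leaving out each mouse gave 1 to 2 genes in all cells, 1 to 3 in activated, TFR, Sostdc1, effector and interferon stimulated cells and 0 to 9 in central memory cells, with 0 to 1 enzymes in activated cells. The chimera difference itself moved by over 1.5 times in activated cells for Ldha (0.14 without mouse 12), Eno1 (0.05 without mouse 12, 0.15 without mouse 14) and Gapdh (0.18 without mouse 24, 0.46 without mouse 14). It did so in TFR cells for Tpi1 (0.13), Pgk1 (0.07), Pgam1 (0.05) and Gpi1 (0.07), each without mouse 34, Eno1 (0.09 without mouse 24) and Gapdh (0.10 without mouse 24, 0.39 without mouse 14), and in Sostdc1 TFH cells for Pgam1 (0.05 without mouse 12) and Gapdh (0.21 without mouse 12, 0.51 without mouse 14). Leaving out a mouse gave 0 to 3 for TFR against activated cells and 1 to 2 for Sostdc1 against activated cells. For expansion it gave 244 (without mouse 23) to 779 (without mouse 14) genes in activated and 11 (without mouse 23) to 158 in TFR cells, and between chimera types 0 to 2 and 0 to 1. For clone likeness it gave 0 to 2 enzymes in both clusters, with 134 to 237 genes in activated and 42 to 72 in TFR cells. Hk2 was found in under 2% of cells in each cluster, and low depth and low expression were not told apart.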

Other observations

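The share of corrected counts taken by the 10 enzymes also differed between mice of the same group. In activated TFH cells it was 61.3 per 10000 in WT mouse 14 and 34.5 to 47.6 in the other WT mice, and 46.8 to 62.8 in 564Igi mice. Group means were 43.9 ± 10.9 and 55.9 ± 6.99 (SD, n = 5 each) in activated TFH, 49.5 ± 9.44 and 58.6 ± 8.20 in TFR, and 50.5 ± 12.1 and 67.1 ± 8.67 in Sostdc1 TFH cells.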
